A study of Rattus norvegicus with 15 samples.

Results

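Cholesterol synthesis, its control by the transcription factor SREBP2 and the movement of sterols were followed in primary rat hepatocytes through 29 named genes. They were taken by name: enzymes from acetyl-CoA to cholesterol, the SREBP2 control genes Srebf2, Scap and Insig1, and the sterol transport genes Stard4, Npc1, Npc2, Abca1, Abcg5 and Abcg8. A probe with 1 of these names was on the array for 28 of them, and all 28 passed the filter on dim probes and were tested among 19803 genes. Expression of Lbr was not analysed here, and only its promoter was counted. Cholesterol uptake is represented only by Npc1 and Npc2, which handle sterol after it has been taken up.

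Hepatocytes make cholesterol from acetyl-CoA through mevalonate and squalene, and they also take it up from lipoproteins and send it out to bile and blood. When the membranes of the endoplasmic reticulum are poor in sterol, SCAP escorts SREBP2 to the Golgi, where it is cut, and the released part switches on nearly the whole set of synthesis enzymes. When sterol is plentiful, INSIG1 holds SCAP and SREBP2 back, and the liver X receptors raise the exporters ABCA1, ABCG5 and ABCG8.

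The cells were cryopreserved primary hepatocytes of male Wister rats (the strain as spelled in the labels), cultured for 24 h and then exposed for 24 h. The 5 groups had 3 arrays each, with 30 µM for the 4 compounds: 2,7- and 1,5-naphthalenediol, 1-naphthol and naphthalene, against the solvent DMSO. The design states 3 independent experiments per condition, and the study asked about read-across of liver toxicity between naphthalene and its analogs. Naphthalene carries no hydroxyl group, 1-naphthol carries a single one, and the diols carry a pair at the positions in their names. All groups shared the cell source, the culture and the times. The sources used here do not give the number and age of the donor animals, so p-values measure the spread between these arrays.

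Each value is the log2 of a spot's Cy3 intensity minus the log2 of its own array's 75th percentile, and is also given as a percentage of that percentile. Between 57.4 and 61% of the gene spots were well above background, no gene spot was saturated, and 2 arrays of a group correlated at 0.996 or more. The 9 hepatocyte markers examined were well above background on all 15 arrays. The 2,7-naphthalenediol and DMSO arrays were on slide 1, the 1-naphthol and naphthalene arrays on slide 2, and those of 1,5-naphthalenediol were divided, with 2 on slide 1 and 1 on slide 2. Slide and compound therefore cannot be told apart for 1-naphthol and naphthalene against DMSO except through 1,5-naphthalenediol, and with the slide as a block no member passed for either of these compounds against DMSO. In RNA from whole cultures, fewer cells of a type and less RNA per cell cannot be told apart.

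Most of the changes were small losses of synthesis enzyme mRNA, and they were largest with 1,5-naphthalenediol. With 2,7-naphthalenediol 10 of the 28 members fell and 1 rose against DMSO in limma at an adjusted p below 0.05, where 11% of all genes were called (6.2% upward and 4.84% downward). With 1,5-naphthalenediol 16 fell and none rose, where 22.1% of all genes were called (9.41% upward and 12.7% downward). With 1-naphthol 10 fell and none rose, where 20.8% were called (10.2% upward and 10.6% downward). With naphthalene 8 fell and 2 rose, where 25.1% were called (12.5% upward and 12.6% downward). With the slide as a block every call of 1-naphthol and of naphthalene against DMSO ended, and 1.13 and 0.727% of all genes were called. All 4 comparisons share the same 3 DMSO arrays. All 3 compound arrays lay below all DMSO arrays for 14 members with 2,7-naphthalenediol, 19 with 1,5-naphthalenediol, 15 with 1-naphthol and 9 with naphthalene, where 22.2, 21.6, 24.1 and 20.8% of all genes did. They lay above for 2, 0, 1 and 5 members, where 16.2, 16.6, 22.9 and 20.5% of all genes did. The median log2 difference of the members was -0.07, -0.19, -0.08 and -0.04 with 2,7- and 1,5-naphthalenediol, 1-naphthol and naphthalene, while the median over all genes lay between -0.02 and 0.00. In the F test of any difference among the 5 groups 19 members passed, where 44.7% of all genes did.

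The mean of the 19 measured synthesis enzymes, taken as the log2 difference from the DMSO mean, showed the same order on single arrays. It stood at -0.15, -0.13 and -0.22 with 2,7-naphthalenediol and at -0.31, -0.26 and -0.29 with 1,5-naphthalenediol. It stood at -0.17, -0.17 and -0.12 with 1-naphthol, at -0.07, -0.08 and -0.06 with naphthalene, and at 0.00, -0.02 and 0.02 with DMSO. The 3 arrays of 1,5-naphthalenediol lay below all other arrays, the one on slide 2 among them, and the arrays of 2,7-naphthalenediol and 1-naphthol overlapped.

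**Figure D1:**
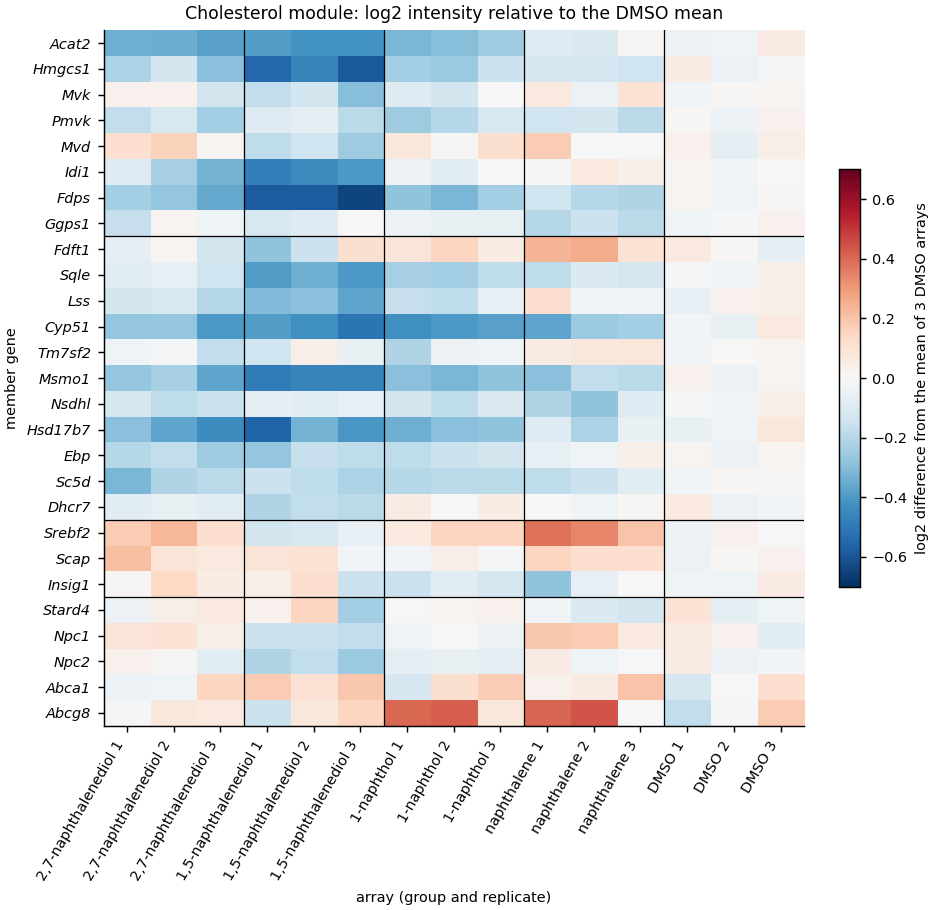
Log2 intensity of 27 members (rows, in 4 blocks by role: early steps, squalene and sterol steps, SREBP2 control, sterol transport) on the 15 arrays (columns), each as the difference from the mean of the 3 DMSO arrays. Blue is lower and red is higher than DMSO. The 3 columns of 1,5-naphthalenediol hold the darkest blue, with Fdps, Hmgcs1, Msmo1, Cyp51 and Idi1 among the darkest rows. Abcg5, near background in most groups, is left out.

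The early steps, from acetyl-CoA to the farnesyl and geranylgeranyl diphosphates, had 5 of 8 members down with 2,7-naphthalenediol, 6 of 8 with 1,5-naphthalenediol, 4 of 8 with 1-naphthol and 3 of 8 with naphthalene, and none up. Their median log2 differences from DMSO were -0.19, -0.31, -0.13 and -0.09 in that order of compounds. Fdps, farnesyl diphosphate synthase, stands at the branch between sterols and the other isoprenoids. Its intensity was 2110, 2060 and 1940% with 2,7-naphthalenediol and 1670, 1670 and 1600% with 1,5-naphthalenediol of the array's 75th percentile. It was 2040, 2000 and 2110% with 1-naphthol, 2260, 2170 and 2150% with naphthalene and 2520, 2430 and 2500% with DMSO. No array of any compound reached the lowest DMSO array, and the 1,5-naphthalenediol arrays lay below all others. Fdps fell by 0.29 ± 0.0405, 0.60 ± 0.0405, 0.28 ± 0.0405 and 0.18 ± 0.0405 on the log2 scale (± SE) with 2,7- and 1,5-naphthalenediol, 1-naphthol and naphthalene (limma adjusted p = 0.0025, 2.58e-06, 0.00181 and 0.00984), a change of -33.9% with 1,5-naphthalenediol. Once the slide was a block, it stood at -0.22 with 1-naphthol and -0.12 with naphthalene, neither called (limma adjusted p = 0.133 and 0.383).

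Hmgcs1, the cytosolic HMG-CoA synthase that commits acetoacetyl-CoA to the pathway, stood at 1520, 1610 and 1450% with 2,7-naphthalenediol and 1210, 1270 and 1170% with 1,5-naphthalenediol. It stood at 1500, 1480 and 1590% with 1-naphthol, 1630, 1630 and 1610% with naphthalene and 1830, 1720 and 1750% with DMSO. The 1,5-naphthalenediol arrays again lay below every other array. It fell by 0.21 ± 0.0485 with 2,7-naphthalenediol, by 0.54 ± 0.0485 with 1,5-naphthalenediol and by 0.22 ± 0.0485 with 1-naphthol (limma adjusted p = 0.0193, 2.46e-05 and 0.0114). With naphthalene the difference was -0.12 ± 0.0485 and missed the threshold (limma adjusted p = 0.0794), although its 3 arrays lay below those of DMSO. The 1-naphthol call ended with the slide as a block, at -0.14 (limma adjusted p = 0.428). The call with 2,7-naphthalenediol ended without 2,7-naphthalenediol 3, DMSO 1 or DMSO 3 (limma adjusted p up to 0.0738).

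Acat2, the cytosolic thiolase that joins acetyl-CoA units, was lower with each hydroxylated compound than with naphthalene. It stood at 400, 398 and 388% with 2,7-naphthalenediol and 385, 379 and 377% with 1,5-naphthalenediol. It stood at 403, 410 and 425% with 1-naphthol, 474, 471 and 509% with naphthalene and 493, 496 and 528% with DMSO. The naphthalene and DMSO ranges overlapped, and all 9 arrays of the hydroxylated compounds lay below both. Acat2 fell by 0.35 ± 0.0412, 0.41 ± 0.0412 and 0.29 ± 0.0412 with 2,7-naphthalenediol, 1,5-naphthalenediol and 1-naphthol (limma adjusted p = 0.00121, 5.02e-05 and 0.0016), while naphthalene stood at -0.06 ± 0.0412 (95% interval -0.15 to 0.03). The block by slide ended the 1-naphthol call, at -0.27 (limma adjusted p = 0.0927). Its 3 dimmer probes gave -0.40, -0.40 and -0.48 with 2,7-naphthalenediol, -0.35, -0.42 and -0.35 with 1,5-naphthalenediol and -0.34, -0.17 and -0.25 with 1-naphthol. With naphthalene they gave -0.23, 0.09 and -0.15, so the probes disagreed there, the first with an adjusted p of 0.00889 in limma.

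Idi1, the isomerase that supplies the building block dimethylallyl diphosphate, was called against DMSO with both diols and with neither of the other compounds. Its arrays held 268, 244 and 226% with 2,7-naphthalenediol and 204, 210 and 216% with 1,5-naphthalenediol. They held 278, 269 and 286% with 1-naphthol, 283, 300 and 294% with naphthalene and 289, 281 and 286% with DMSO. Both diols lay below DMSO on all arrays, and the 1-naphthol and naphthalene ranges overlapped it. Idi1 fell by 0.22 ± 0.0551 with 2,7-naphthalenediol and by 0.44 ± 0.0551 with 1,5-naphthalenediol (limma adjusted p = 0.0302 and 0.000214), against differences of -0.04 with 1-naphthol (-0.16 to 0.08) and 0.04 with naphthalene (-0.08 to 0.16, both 95% intervals). Compared directly, 2,7-naphthalenediol differed from 1-naphthol by -0.18 and missed the threshold (limma adjusted p = 0.0506). A dimmer Idi1 probe gave -0.29, -0.39, -0.21 and -0.11 with the 4 compounds in the same order, and -0.21 with 1-naphthol passed the threshold on that probe (limma adjusted p = 0.0391). The call with 2,7-naphthalenediol ended without any 1 of its 6 arrays other than 2,7-naphthalenediol 1 (limma adjusted p up to 0.1).

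The mevalonate kinases and decarboxylase moved less. Pmvk, phosphomevalonate kinase, fell by 0.17 ± 0.0482 with 2,7-naphthalenediol, 0.19 ± 0.0482 with 1-naphthol and 0.15 ± 0.0482 with naphthalene (limma adjusted p = 0.0397, 0.0192 and 0.0366), and stood at -0.12 ± 0.0482 with 1,5-naphthalenediol (0.107). Mvk, mevalonate kinase, and Mvd, mevalonate diphosphate decarboxylase, fell with 1,5-naphthalenediol, by 0.20 ± 0.0602 and 0.19 ± 0.0586 (limma adjusted p = 0.0321 and 0.0368). With the other compounds Mvk lay between -0.07 and 0.04, and Mvd between 0.06 and 0.10, none of them called. Ggps1, which makes geranylgeranyl diphosphate, fell with naphthalene by 0.18 ± 0.0473 (limma adjusted p = 0.0185) and lay between -0.07 and -0.05 with the others. The Mvk and Mvd calls ended with the slide as a block, at -0.15 and -0.16 (limma adjusted p = 0.0966 and 0.0988). So did the Pmvk calls with 1-naphthol and naphthalene, at -0.08 and -0.05, and the Ggps1 call with naphthalene, at -0.28 (limma adjusted p = 0.637, 0.776 and 0.0955). Left-out arrays ended more calls here: Mvk without any 1 of its 6 arrays other than 1,5-naphthalenediol 2 (limma adjusted p up to 0.0966), Mvd without 1,5-naphthalenediol 1, 1,5-naphthalenediol 3, DMSO 1 or DMSO 3 (limma adjusted p up to 0.115) and Ggps1 without naphthalene 1 or DMSO 3 (limma adjusted p up to 0.0687). Pmvk lost its call without any 1 of its 6 arrays (limma adjusted p up to 0.138) for 2,7-naphthalenediol, without 1-naphthol 1, 1-naphthol 2 or DMSO 3 (limma adjusted p up to 0.0702) for 1-naphthol and without any 1 of its 6 arrays (limma adjusted p up to 0.113) for naphthalene.

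**Figure D2:**
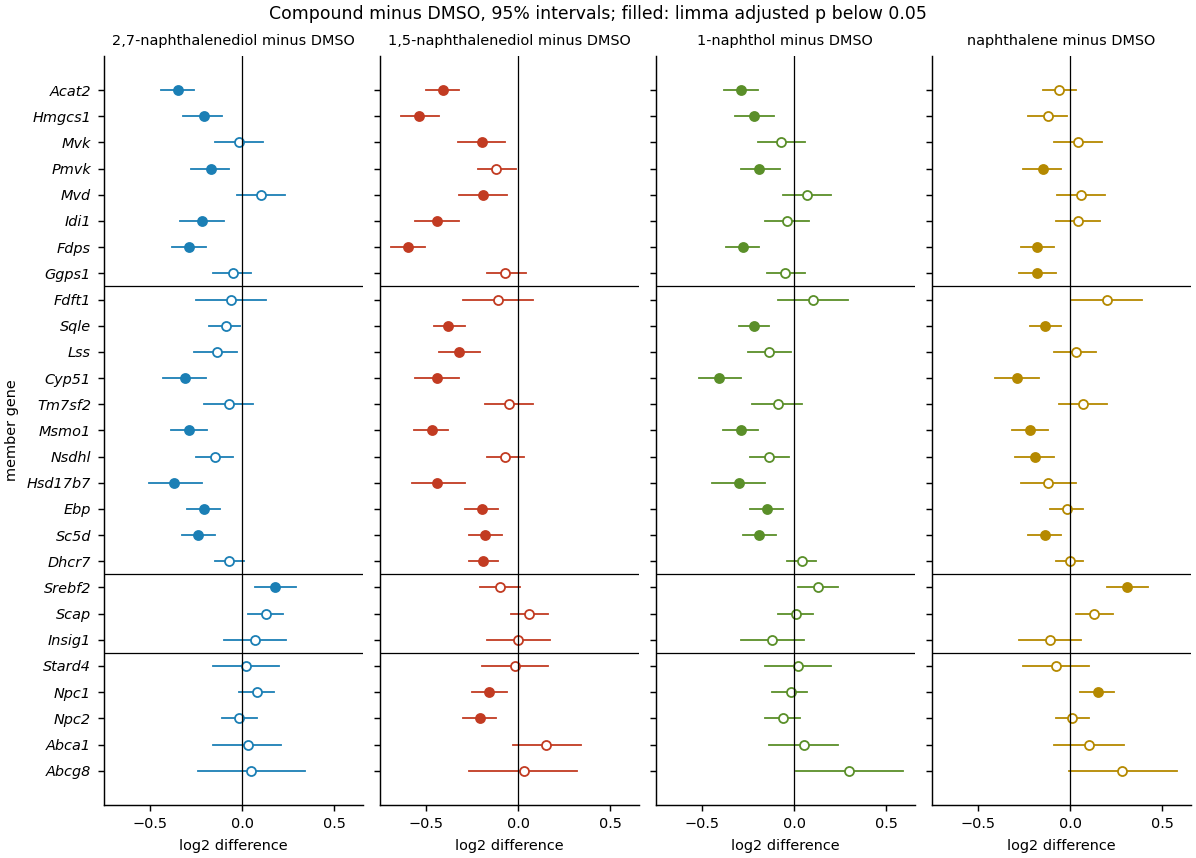
Log2 difference from DMSO of 27 members (rows, blocks by role) for 2,7- and 1,5-naphthalenediol, 1-naphthol and naphthalene, with 95% intervals from limma over 15 arrays. Filled points have an adjusted p below 0.05. Filled points in the upper 2 blocks all lie left of zero, and the panel of 1,5-naphthalenediol reaches furthest left, at -0.60 for Fdps. The slide is not in this fit, and with it as a block no point of 1-naphthol or naphthalene would be filled. Abcg5 is left out.

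The squalene and sterol steps had 5 of 11 measured members down with 2,7-naphthalenediol, 8 of 11 with 1,5-naphthalenediol, 6 of 11 with 1-naphthol and 5 of 11 with naphthalene, and none up. Their median differences were -0.15, -0.20, -0.15 and -0.12. Cyp51, lanosterol demethylase, carried the largest differences of this group with 1-naphthol and naphthalene. It stood at 670, 670 and 611% with 2,7-naphthalenediol and 617, 601 and 569% with 1,5-naphthalenediol. It stood at 598, 613 and 619% with 1-naphthol, 624, 676 and 682% with naphthalene and 795, 780 and 850% with DMSO. Every compound array lay below the lowest DMSO array. Cyp51 fell by 0.31 ± 0.0531, 0.44 ± 0.0531, 0.41 ± 0.0531 and 0.29 ± 0.0531 with 2,7- and 1,5-naphthalenediol, 1-naphthol and naphthalene (limma adjusted p = 0.00543, 0.000172, 0.00115 and 0.00425). Both the 1-naphthol and the naphthalene call ended with the slide as a block, at -0.31 and -0.19 (limma adjusted p = 0.113 and 0.276). A dimmer Cyp51 probe gave -0.23, -0.36, -0.26 and -0.10, the last not called (limma adjusted p = 0.183).

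Msmo1, the methylsterol monooxygenase that acts after Cyp51, stood at 1550, 1590 and 1440% with 2,7-naphthalenediol and 1330, 1350 and 1350% with 1,5-naphthalenediol. It stood at 1530, 1500 and 1540% with 1-naphthol, 1520, 1660 and 1640% with naphthalene and 1900, 1810 and 1890% with DMSO. All compound arrays lay below DMSO, and those of 1,5-naphthalenediol below all others. It fell by 0.29 ± 0.0443, 0.47 ± 0.0443, 0.29 ± 0.0443 and 0.22 ± 0.0443 with the 4 compounds in the same order (limma adjusted p = 0.00369, 3.11e-05, 0.00207 and 0.00618). Sc5d, the sterol desaturase near the end of the pathway, fell by a smaller amount and without that order, by 0.24 ± 0.0411, 0.18 ± 0.0411, 0.19 ± 0.0411 and 0.14 ± 0.0411 (limma adjusted p = 0.00563, 0.00809, 0.00887 and 0.0298). Under the slide block Msmo1 stood at -0.31 with 1-naphthol and -0.23 with naphthalene, and Sc5d at -0.14 and -0.08, none of them called (limma adjusted p = 0.0848, 0.149, 0.337 and 0.562). The Sc5d call with naphthalene also ended without naphthalene 1, naphthalene 2, DMSO 2 or DMSO 3 (limma adjusted p up to 0.0983).

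Sqle, squalene epoxidase, held 384, 391 and 368% with 2,7-naphthalenediol and 311, 321 and 309% with 1,5-naphthalenediol. It held 347, 344 and 359% with 1-naphthol, 358, 379 and 373% with naphthalene and 404, 399 and 417% with DMSO. The 1,5-naphthalenediol arrays stood apart below the rest. Sqle fell by 0.38 ± 0.0376, 0.22 ± 0.0376 and 0.14 ± 0.0376 with 1,5-naphthalenediol, 1-naphthol and naphthalene (limma adjusted p = 5.02e-05, 0.00361 and 0.0228), and 2,7-naphthalenediol gave -0.09 ± 0.0376 (0.121). Lss, lanosterol synthase, fell with 1,5-naphthalenediol by 0.32 ± 0.0508 (limma adjusted p = 0.000995) and stood at -0.14, -0.14 and 0.03 with 2,7-naphthalenediol, 1-naphthol and naphthalene. Dhcr7, the reductase of the final step, fell with 1,5-naphthalenediol by 0.19 ± 0.0363 (limma adjusted p = 0.00313), and its other differences lay between -0.07 and 0.04. The Sqle calls with 1-naphthol and naphthalene ended under the slide block, at -0.19 and -0.11 (limma adjusted p = 0.169 and 0.418). The call with naphthalene also ended without naphthalene 1 or DMSO 3 (limma adjusted p up to 0.0872).

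Hsd17b7 and Ebp, a ketosteroid reductase and a sterol isomerase of the same route, were called against DMSO with the 3 hydroxylated compounds. Hsd17b7 fell by 0.37 ± 0.0666, 0.44 ± 0.0666 and 0.30 ± 0.0666 with 2,7-naphthalenediol, 1,5-naphthalenediol and 1-naphthol (limma adjusted p = 0.0075, 0.000813 and 0.00993), and naphthalene gave -0.12 ± 0.0666 (0.203). Ebp fell by 0.21 ± 0.0413, 0.20 ± 0.0413 and 0.15 ± 0.0413 (limma adjusted p = 0.0115, 0.00472 and 0.0239), with -0.02 under naphthalene (95% interval -0.11 to 0.07). Compared directly, 1-naphthol and naphthalene differed by -0.18 for Hsd17b7 and -0.13 for Ebp, neither called (limma adjusted p = 0.177 and 0.113). Nsdhl, a sterol dehydrogenase, fell with naphthalene by 0.19 ± 0.0472 (limma adjusted p = 0.0138) and stood at -0.15, -0.07 and -0.14 with the others. The 1-naphthol calls of Hsd17b7 and Ebp ended with the slide as a block, at -0.34 and -0.18, and so did the naphthalene call of Nsdhl, at -0.21 (limma adjusted p = 0.171, 0.22 and 0.207). The Ebp call with 1-naphthol also ended without any 1 of its 6 arrays other than DMSO 2 (limma adjusted p up to 0.0811), and the Nsdhl call without DMSO 3 (limma adjusted p up to 0.0552). Fdft1, squalene synthase, and Tm7sf2, a sterol reductase, passed in no comparison with DMSO, at -0.11 to 0.20 and -0.09 to 0.07. The Fdft1 arrays of 1,5-naphthalenediol held 200, 219 and 263%, the last of them the array on slide 2, against 256, 244 and 231% with DMSO. Blocked by slide, Fdft1 was called lower with 1,5-naphthalenediol, at -0.22 (limma adjusted p = 0.0405), and its uncalled differences with 1-naphthol and naphthalene turned from 0.10 and 0.20 to -0.24 and -0.13.

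Promoters are shown for Fdps, Cyp51, Msmo1 and Sc5d, the members called against DMSO with all 4 compounds in the fit without the slide. The windows run from 250 bases before to 50 after the annotated start, from RefSeq on GRCr8, and are printed 5′ to 3′ on the gene's strand. Capitals mark 3 short motifs found on either strand: CACNCCA, the core shared by many sterol regulatory elements, CCAAT, which NF-Y binds, and GGGCGG, which Sp1 binds. Within these 4 windows no motif overlapped another.
Fdps (GRCr8 chr2:176804767-176805066, minus strand): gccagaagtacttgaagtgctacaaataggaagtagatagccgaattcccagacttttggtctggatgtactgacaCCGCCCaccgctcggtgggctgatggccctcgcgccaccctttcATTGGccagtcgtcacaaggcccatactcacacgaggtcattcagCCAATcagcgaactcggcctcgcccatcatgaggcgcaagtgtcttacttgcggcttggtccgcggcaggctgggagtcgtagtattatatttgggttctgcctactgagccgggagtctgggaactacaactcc
Cyp51 (GRCr8 chr4:30991443-30991742, plus strand): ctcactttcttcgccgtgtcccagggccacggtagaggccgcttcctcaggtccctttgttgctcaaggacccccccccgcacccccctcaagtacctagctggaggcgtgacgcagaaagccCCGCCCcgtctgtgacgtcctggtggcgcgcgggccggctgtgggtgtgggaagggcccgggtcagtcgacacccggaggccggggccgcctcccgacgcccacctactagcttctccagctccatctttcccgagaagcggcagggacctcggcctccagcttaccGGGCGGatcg
Msmo1 (GRCr8 chr16:29746863-29747162, plus strand): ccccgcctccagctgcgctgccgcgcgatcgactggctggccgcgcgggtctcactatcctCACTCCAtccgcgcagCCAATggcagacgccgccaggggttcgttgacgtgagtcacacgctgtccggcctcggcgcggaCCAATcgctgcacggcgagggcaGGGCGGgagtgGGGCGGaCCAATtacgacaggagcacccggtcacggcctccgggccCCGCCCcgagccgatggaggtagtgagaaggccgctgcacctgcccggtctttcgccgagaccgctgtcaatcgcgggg
Sc5d (GRCr8 chr8:51538228-51538527, minus strand): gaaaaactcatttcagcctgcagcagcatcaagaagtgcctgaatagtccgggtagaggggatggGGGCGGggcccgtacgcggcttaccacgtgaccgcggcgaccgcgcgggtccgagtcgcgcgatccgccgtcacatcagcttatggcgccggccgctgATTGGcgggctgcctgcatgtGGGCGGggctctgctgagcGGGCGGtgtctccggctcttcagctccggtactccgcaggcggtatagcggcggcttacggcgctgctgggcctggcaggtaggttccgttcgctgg

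The Fdps window held CCAAT at 2 places and GGGCGG at 1, and the Cyp51 window held GGGCGG at 2. Msmo1 held all 3 motifs, with CACNCCA at 1 place, CCAAT at 3 and GGGCGG at 3, and Sc5d held CCAAT at 1 place and GGGCGG at 3. A promoter was listed for 25 of the 29 members, with none used here for Pmvk, Fdft1, Sqle and Stard4. CACNCCA was found in 24% of these 25 promoters, against 17.2% of all 33469 promoters in the table and 16.5% of the 21851 of protein-coding genes. CCAAT was found in 76%, against 37.5 and 38%, and GGGCGG in 80%, against 33.1 and 41.8%. The member promoters were also richer in G and C, at a median of 63% against 51.7% of all promoters and 55% of those of protein-coding genes, and the part of base composition in these shares was not tested. The windows of Abcg5 and Abcg8 lie on opposite strands of nearly the same stretch and count separately. A match describes letters and no binding was measured.

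Among the SREBP2 control genes, Srebf2, which encodes SREBP2, was called lower than DMSO with no compound. It stood at 160, 165 and 153% with 2,7-naphthalenediol and 129, 131 and 135% with 1,5-naphthalenediol. It stood at 148, 157 and 157% with 1-naphthol, 184, 179 and 162% with naphthalene and 138, 144 and 141% with DMSO. The 2,7-naphthalenediol, 1-naphthol and naphthalene arrays all lay above the highest DMSO array, and the 1,5-naphthalenediol arrays all lay below the lowest. Srebf2 rose by 0.18 ± 0.0502 with 2,7-naphthalenediol and by 0.31 ± 0.0502 with naphthalene (limma adjusted p = 0.0436 and 0.00299), while 1,5-naphthalenediol and 1-naphthol gave -0.10 ± 0.0502 and 0.13 ± 0.0502 (0.176 and 0.0937). The call with 2,7-naphthalenediol ended without any 1 of 6 arrays in turn (limma adjusted p up to 0.146), and the call with naphthalene ended with the slide as a block, at 0.26 (limma adjusted p = 0.153). Between compounds, Srebf2 was called lower with 1,5-naphthalenediol than with 2,7-naphthalenediol, 1-naphthol and naphthalene, at -0.28, -0.23 and -0.41, as were several enzymes. The call against 1-naphthol ended with the slide as a block.

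Scap, the escort of SREBP2, and Insig1, its retention partner and itself a known SREBP2 target, passed in no comparison with DMSO. Scap stood at 0.13, 0.06, 0.01 and 0.13 with 2,7- and 1,5-naphthalenediol, 1-naphthol and naphthalene. Insig1 held 933, 1020 and 954% with 2,7-naphthalenediol and 950, 1000 and 832% with 1,5-naphthalenediol. It held 831, 876 and 848% with 1-naphthol, 761, 887 and 922% with naphthalene and 905, 907 and 961% with DMSO. Its ranges overlapped DMSO except with 1-naphthol, whose arrays lay below. The differences were 0.07, 0.00, -0.12 and -0.11, and the 95% interval with 1,5-naphthalenediol, -0.17 to 0.17, leaves out changes as large as those of Fdps or Hmgcs1. A dimmer Insig1 probe gave 0.10, 0.06, -0.06 and -0.09.

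Sterol transport genes changed little, and their median differences lay between 0.00 and 0.05. Npc1, the late endosomal protein that passes lipoprotein cholesterol on to the cell, stood at 466, 471 and 450% with 2,7-naphthalenediol and 394, 396 and 390% with 1,5-naphthalenediol. It stood at 430, 439 and 426% with 1-naphthol, 500, 496 and 461% with naphthalene and 455, 446 and 414% with DMSO. The 1,5-naphthalenediol arrays lay below and the naphthalene arrays above all DMSO arrays. Npc1 fell by 0.16 ± 0.0437 with 1,5-naphthalenediol (limma adjusted p = 0.0234) and rose by 0.15 ± 0.0437 with naphthalene (0.0293), with 0.08 and -0.02 under 2,7-naphthalenediol and 1-naphthol. With the slide as a block both calls ended, at -0.15 and 0.17 (limma adjusted p = 0.0505 and 0.28). They also ended with single arrays left out, for 1,5-naphthalenediol without any 1 of its 6 arrays other than DMSO 3 (limma adjusted p up to 0.0876) and for naphthalene without naphthalene 1, naphthalene 2, DMSO 2 or DMSO 3 (limma adjusted p up to 0.118). Npc2, its soluble partner in the endosome, fell with 1,5-naphthalenediol by 0.21 ± 0.0428 (limma adjusted p = 0.00452, with the block -0.19 and 0.0153) and stood between -0.06 and 0.01 with the others.

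Stard4, a cytosolic sterol carrier and known SREBP2 target, stood between -0.08 and 0.02, and Abca1, which loads cholesterol onto lipoproteins, between 0.03 and 0.15, none called. Their 95% intervals with 1,5-naphthalenediol were -0.20 to 0.16 and -0.03 to 0.34. A second, much dimmer Stard4 probe gave 0.59, 0.14, 0.23 and 0.13 with 2,7- and 1,5-naphthalenediol, 1-naphthol and naphthalene, none called. Abcg5 and Abcg8 form the pump that sends sterols into bile, and both were dim. Abcg8 held 3.08, 3.28 and 3.25% with 2,7-naphthalenediol and 2.79, 3.27 and 3.44% with 1,5-naphthalenediol. It held 4.09, 4.14 and 3.27% with 1-naphthol, 4.11, 4.22 and 3.1% with naphthalene and 2.76, 3.07 and 3.52% with DMSO. The ranges overlapped DMSO in every group, and the largest difference was 0.30 ± 0.134 with 1-naphthol (limma adjusted p = 0.132). Abcg5 was well above background on 2 of 3 arrays with 2,7-naphthalenediol, 2 with 1,5-naphthalenediol, 3 with 1-naphthol, 0 with naphthalene and 1 with DMSO, so its level in naphthalene is only a bound. Abcg5 passed the filter on dim probes only through 1-naphthol, so comparisons with that group are no support for a difference. The measured value for 1-naphthol minus naphthalene was 0.70 (95% interval -0.05 to 1.45) and did not pass (limma adjusted p = 0.323).

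**Figure D3:**
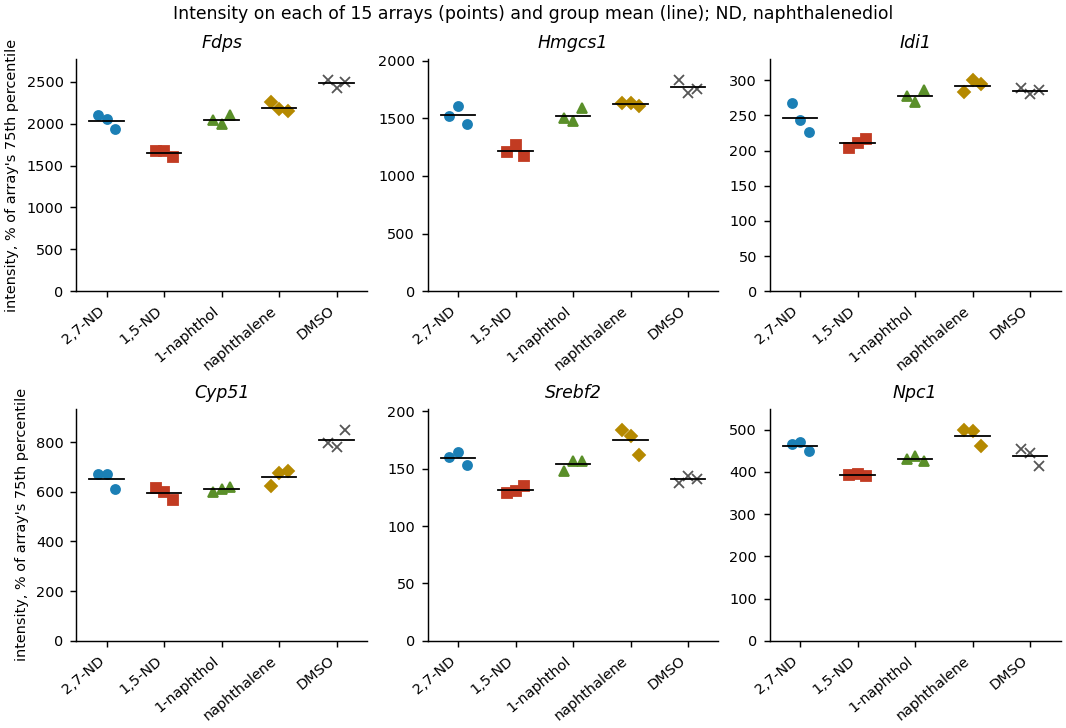
Intensity of 6 members as a percentage of the array's 75th percentile (vertical axes from 0), with 1 point per array and a line at the mean of 3 arrays, for 2,7- and 1,5-naphthalenediol, 1-naphthol, naphthalene and DMSO (ND, naphthalenediol). Fdps and Hmgcs1 are lowest with 1,5-naphthalenediol and highest with DMSO, Idi1 is low with both diols, and Srebf2 and Npc1 are highest with naphthalene.

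The compounds were tested against each other at the same dose and time in 6 pairs. The diols differ in the positions of their hydroxyl groups, and they differed in response: with 1,5-naphthalenediol 11 members were lower than with 2,7-naphthalenediol and none was higher, where 14.7% of all genes were called (6.62% upward and 8.1% downward). These were Hmgcs1 (-0.32), Mvd (-0.29), Idi1 (-0.23), Fdps (-0.31), Sqle (-0.28), Lss (-0.18), Msmo1 (-0.18), Dhcr7 (-0.12), Srebf2 (-0.28), Npc1 (-0.23) and Npc2 (-0.19), with limma adjusted p between 0.000549 and 0.0451. On slide 1 alone, which holds both diols, 6 of them passed, where 8.04% of all genes were called. Fdps kept -0.29 there, Hmgcs1 -0.30, Sqle -0.27 and Srebf2 -0.29 (limma adjusted p = 0.0193, 0.0309, 0.0193 and 0.0177). The calls of Lss and Dhcr7 ended with the slide as a block, at -0.15 and -0.12 (limma adjusted p = 0.109 and 0.0926). All 1,5-naphthalenediol arrays lay below all 2,7-naphthalenediol arrays for 13 members and above them for 1, where 17.4 and 14.6% of all genes did. Several members fell with both diols and did not separate them: Acat2 differed by -0.06 (95% interval -0.15 to 0.03), Hsd17b7 by -0.07 (-0.22 to 0.07), Ebp by 0.00 (-0.09 to 0.10) and Sc5d by 0.06 (-0.03 to 0.15). Among the 11 calls, that of Idi1 ended without 1,5-naphthalenediol 1 or 2,7-naphthalenediol 1 (limma adjusted p up to 0.0548), that of Msmo1 without 2,7-naphthalenediol 1 or 2,7-naphthalenediol 2 (limma adjusted p up to 0.0708), that of Lss without any 1 of its 6 arrays other than 2,7-naphthalenediol 3 (limma adjusted p up to 0.116) and that of Dhcr7 without any 1 of its 6 arrays (limma adjusted p up to 0.138).

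Compared with 1-naphthol, which has the hydroxyl group at position 1 alone, 1,5-naphthalenediol had 9 members lower and none higher, where 9.16% of all genes were called (4.36% upward and 4.8% downward). Idi1 (-0.40 ± 0.0551), Fdps (-0.32 ± 0.0405) and Hmgcs1 (-0.32 ± 0.0485) differed most (limma adjusted p = 0.00132, 0.000882 and 0.00235), followed by Mvd, Srebf2, Dhcr7, Lss, Msmo1 and Sqle at -0.26 to -0.16. With the slide as a block 3 remained called, where 1.87% of all genes were called. They were these first 3, at -0.36, -0.36 and -0.37 (limma adjusted p = 0.044, 0.0122 and 0.0216). The first place of Idi1 rests on its brighter probe, at -0.44 with 1,5-naphthalenediol and -0.04 with 1-naphthol against DMSO. Its dimmer probe gave -0.39 and -0.21, which lie closer together, and this pair was not tested on that probe. Cyp51 did not separate this pair, at -0.03 (95% interval -0.15 to 0.08), and neither did Sc5d, at 0.01 (-0.08 to 0.10). The 1,5-naphthalenediol arrays lay below those of 1-naphthol for 13 members and above them for 1, where 16.7 and 14.4% of all genes did. Of the 6 further calls, those of Mvd, Srebf2, Lss, Msmo1 and Sqle ended with single arrays left out: Mvd without 1,5-naphthalenediol 1, 1-naphthol 1 or 1-naphthol 3 (limma adjusted p up to 0.0814), Srebf2 without 1,5-naphthalenediol 1, 1,5-naphthalenediol 2, 1-naphthol 2 or 1-naphthol 3 (limma adjusted p up to 0.0758), Lss without any 1 of its 6 arrays (limma adjusted p up to 0.148), Msmo1 without any 1 of its 6 arrays other than 1,5-naphthalenediol 3 (limma adjusted p up to 0.0953) and Sqle without 1,5-naphthalenediol 1, 1-naphthol 1, 1-naphthol 2 or 1-naphthol 3 (limma adjusted p up to 0.0986).

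Compared with naphthalene, 1,5-naphthalenediol had 16 members lower and none higher, where 24.9% of all genes were called (11.3% upward and 13.7% downward). They were 13 synthesis enzymes together with Srebf2, Npc1 and Npc2. Idi1, Fdps and Hmgcs1 differed by -0.48 ± 0.0551, -0.42 ± 0.0405 and -0.41 ± 0.0485, and Srebf2 and Npc1 by -0.41 ± 0.0502 and -0.31 ± 0.0437 (limma adjusted p = 0.000142, 4.6e-05, 0.000155, 0.000204 and 0.000561). The dimmer Idi1 probe separated this pair less, at -0.39 with 1,5-naphthalenediol and -0.11 with naphthalene against DMSO. The brighter probe stood at -0.44 and 0.04. With the slide as a block 13 were called, where 8.47% of all genes were called. Idi1, Fdps, Hmgcs1 and Srebf2 stood at -0.43, -0.46, -0.47 and -0.37 with it (limma adjusted p = 0.00728, 0.00109, 0.00243 and 0.00953). Fdft1 lost its call there, at -0.09 against -0.31 without the block, and Hsd17b7 and Ebp lost theirs at -0.29 and -0.16 (limma adjusted p = 0.597, 0.0911 and 0.113). The Fdft1 call also ended without 1,5-naphthalenediol 1, 1,5-naphthalenediol 2, naphthalene 1 or naphthalene 2 (limma adjusted p up to 0.0895). Slide 2 holds a single 1,5-naphthalenediol array, which stood at 1600% for Fdps, 1170% for Hmgcs1 and 216% for Idi1. The naphthalene arrays on that slide held 2150 to 2260%, 1610 to 1630% and 283 to 300%. The 1,5-naphthalenediol arrays lay below those of naphthalene for 18 members and above them for 2, where 18.4 and 16% of all genes did.

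**Figure D4:**
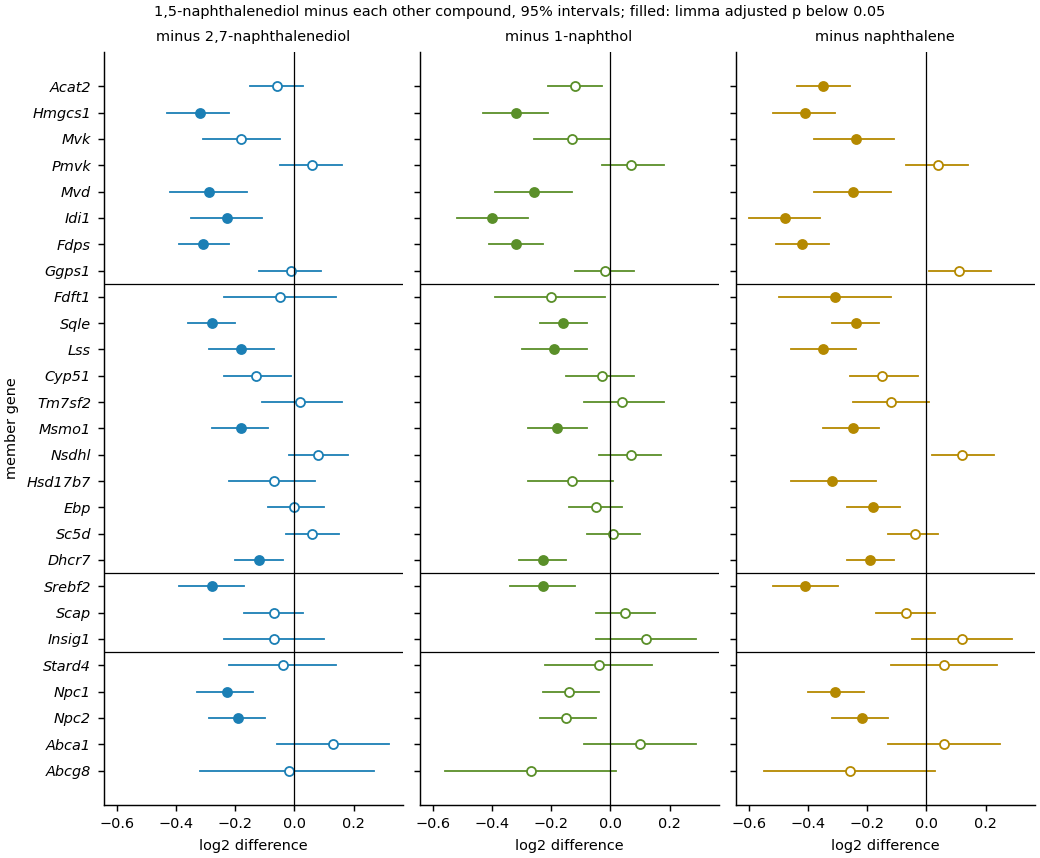
Log2 difference of 27 members (rows, blocks by role) between 1,5-naphthalenediol and 2,7-naphthalenediol, 1-naphthol and naphthalene, with 95% intervals from limma over 15 arrays. Filled points have an adjusted p below 0.05 and all lie left of zero: 11 for 2,7-naphthalenediol, 9 for 1-naphthol and 16 for naphthalene. Abcg5 is left out.

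Among the other 3 pairs few members were called. Between 2,7-naphthalenediol and 1-naphthol only Sqle passed, higher with 2,7-naphthalenediol by 0.12 ± 0.0376 (limma adjusted p = 0.0464), where 14.7% of all genes were called (6.23% upward and 8.49% downward). Fdps, Hmgcs1 and Msmo1 differed there by -0.01 (95% interval -0.10 to 0.08), 0.00 (-0.10 to 0.11) and 0.00 (-0.09 to 0.10). Between 2,7-naphthalenediol and naphthalene 5 members were lower with the diol, where 15.8% of all genes were called (6.32% upward and 9.5% downward): Acat2 (-0.29), Idi1 (-0.25), Hsd17b7 (-0.25), Ebp (-0.19) and Lss (-0.17), with limma adjusted p from 0.00372 to 0.0418. These pairs lie on different slides, and with the slide as a block no member passed in either. With that block only 0.0808 and 0.0202% of all genes were called in the 2 pairs. Between 1-naphthol and naphthalene, which share slide 2, only Acat2 passed, lower with 1-naphthol by -0.23 ± 0.0412 (limma adjusted p = 0.0141), where 2.44% of all genes were called (1.04% upward and 1.4% downward). Its 3 dimmer probes also stood lower with 1-naphthol, but by unequal amounts. Against DMSO they gave -0.34, -0.17 and -0.25 with 1-naphthol and -0.23, 0.09 and -0.15 with naphthalene. Srebf2 stood at -0.18 in that pair (95% interval -0.29 to -0.07) and Npc1 at -0.17 (-0.26 to -0.07). The 1-naphthol arrays lay below those of naphthalene for 13 members and above them for 3, where 12.4 and 11.8% of all genes did. The 2,7-naphthalenediol arrays lay below those of naphthalene for 10 and above for 1, where 19.2 and 15.2% did, and below those of 1-naphthol for 4 and above for 4, where 22 and 19.3% did. The Sqle call ended without any 1 of its 6 arrays (limma adjusted p up to 0.145), and the Acat2 call of the last pair without 1-naphthol 1 or 1-naphthol 2 (limma adjusted p up to 0.0685). Against naphthalene, the 2,7-naphthalenediol call of Lss ended without any 1 of its 6 arrays other than naphthalene 3 (limma adjusted p up to 0.14), that of Hsd17b7 without 2,7-naphthalenediol 2, 2,7-naphthalenediol 3, naphthalene 1 or naphthalene 3 (limma adjusted p up to 0.108), that of Ebp without 2,7-naphthalenediol 3 (limma adjusted p up to 0.056) and that of Idi1 without 2,7-naphthalenediol 3 (limma adjusted p up to 0.0503).

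The slide bore unevenly on these results. With 2,7-naphthalenediol, which shares slide 1 with DMSO, the block left the differences as they were and called the same 11 members, and slide 1 alone called 9. Of all genes 15.1% were called with the block and 9.36% on slide 1 alone. With 1,5-naphthalenediol the block called 14, with Fdft1 gained and Mvk, Mvd and Npc1 lost, where 22.1% of all genes were called. Slide 1 alone called 12, where 17.9% of all genes were called. Fdps stood there at -0.58, Hmgcs1 at -0.51 and Msmo1 at -0.48 (limma adjusted p = 0.00161, 0.00408 and 0.00358). With 1-naphthol and naphthalene the block called no member, where 1.13 and 0.727% of all genes were called. The median SE of the members was 0.0887 there, against 0.0493 without the block. Over the 10 members called without it, the blocked differences lay between -0.34 for Hsd17b7 and -0.08 for Pmvk with 1-naphthol. With naphthalene they lay between -0.28 for Ggps1 and -0.05 for Pmvk for the lower members, and stood at 0.26 and 0.17 for Srebf2 and Npc1.

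**Figure D5:**
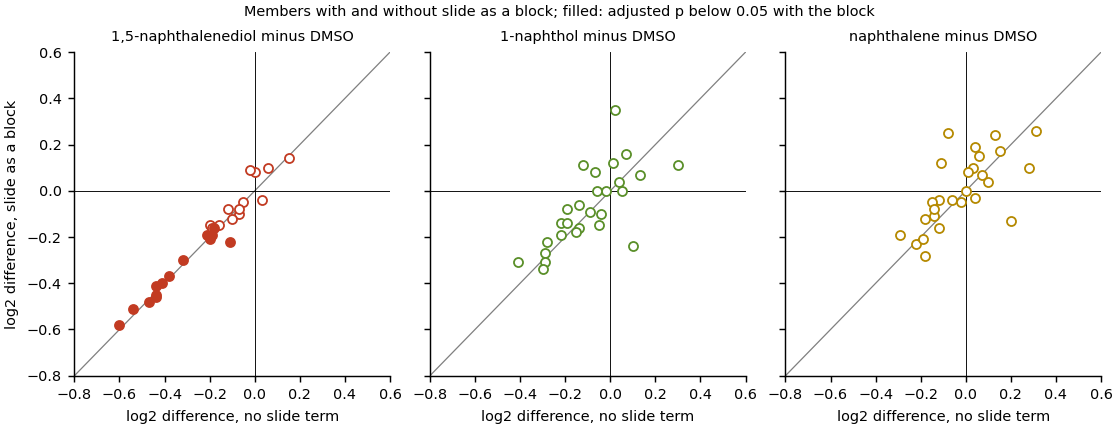
Log2 difference from DMSO of 27 members without (horizontal) and with (vertical) the slide as a block, for 1,5-naphthalenediol, 1-naphthol and naphthalene. The grey line marks equal values, and filled points have an adjusted p below 0.05 with the block. The 1,5-naphthalenediol points hug the line with 14 filled, and the points of 1-naphthol and naphthalene scatter around it with none filled.

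Genes around the pathway were called in both directions. Of 28 further genes of sterol regulation, storage and transport 23 were tested, with 2 up and 3 down for 2,7-naphthalenediol, 2 and 4 for 1,5-naphthalenediol, 1 and 3 for 1-naphthol and 3 and 5 for naphthalene. These were 21.7, 26.1, 17.4 and 34.8% of the 23, beside 11, 22.1, 20.8 and 25.1% of all genes. Lrp1, a lipoprotein receptor, rose by 0.53 ± 0.0899, 0.63 ± 0.0899 and 0.40 ± 0.0899 with 2,7-naphthalenediol, 1,5-naphthalenediol and naphthalene (limma adjusted p = 0.00531, 0.000536 and 0.00967). Srebf1, which encodes the lipogenic relative of SREBP2, rose by 0.44 ± 0.0888, 0.31 ± 0.0888 and 0.35 ± 0.0888 with 1,5-naphthalenediol, 1-naphthol and naphthalene (0.0045, 0.03 and 0.0159). Nceh1, a cholesteryl ester hydrolase, stood at -0.27 ± 0.0443, -0.29 ± 0.0443, -0.33 ± 0.0443 and -0.24 ± 0.0443 with 2,7- and 1,5-naphthalenediol, 1-naphthol and naphthalene, all called downward. With the slide as a block no gene of this list passed with 1-naphthol or naphthalene. Srebf1 stood there at 0.29 and 0.33 and Nceh1 at -0.35 and -0.26 (limma adjusted p = 0.389, 0.305, 0.0635 and 0.113), and Lrp1 with naphthalene at 0.66 (0.0528). Of 13 genes of the non-sterol isoprenoid and ketone branches 12 were tested. They had 1 up and 2 down with 2,7-naphthalenediol, 1 and 5 with 1,5-naphthalenediol, 1 and 5 with 1-naphthol and 1 and 4 with naphthalene. These were 25, 50, 50 and 41.7% of the 12, against the shares of all genes given above. Pggt1b was called downward with all 4 compounds, at -0.18, -0.30, -0.34 and -0.28. Under the slide block none of the 12 passed with 1-naphthol or naphthalene.

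Lipogenic genes that SREBP1 is known to control had 0 up and 2 down of 14 with 2,7-naphthalenediol, 3 and 7 with 1,5-naphthalenediol, 2 and 3 with 1-naphthol and 1 and 1 with naphthalene. The called shares were 14.3, 71.4, 35.7 and 14.3%, against the shares of all genes given above. Acss2 and Acly, which supply cytosolic acetyl-CoA, stood at -0.35 ± 0.0555 and -0.23 ± 0.0621 with 2,7-naphthalenediol, -0.59 ± 0.0555 and -0.59 ± 0.0621 with 1,5-naphthalenediol and -0.45 ± 0.0555 and -0.28 ± 0.0621 with 1-naphthol, all called. The 7 down with 1,5-naphthalenediol included Thrsp at -0.61 ± 0.0888 and fatty acid synthase, Fasn, at -0.33 ± 0.0825 (limma adjusted p = 0.000624 and 0.0149). The 3 up were Elovl6, Me1 and Gpam, at 0.22, 0.23 and 0.18. With naphthalene Acss2 was at -0.21 ± 0.0555 and Fasn rose by 0.37 ± 0.0825 (limma adjusted p = 0.0179 and 0.00964). Under the slide block Acss2 and Acly stood at -0.34 and -0.22 with 1-naphthol and Acss2 and Fasn at -0.11 and 0.54 with naphthalene, none called (limma adjusted p = 0.0972, 0.319, 0.573 and 0.084). Of 8 listed genes that turn cholesterol into bile acids 6 were tested, and Cyp7a1 and Cyp7b1 were not. The 6 had 0 up and 1 down for 2,7-naphthalenediol, 1 and 2 for 1,5-naphthalenediol, 1 and 2 for 1-naphthol and 0 and 2 for naphthalene. These were 16.7, 50, 50 and 33.3% of the 6, beside 11, 22.1, 20.8 and 25.1% of all genes. Cyp27a1, a sterol hydroxylase, was called downward with all 4 compounds, at -0.15, -0.24, -0.12 and -0.11. Hsd3b7 fell further, by 0.33 ± 0.0503, 0.27 ± 0.0503 and 0.19 ± 0.0503 with 1,5-naphthalenediol, 1-naphthol and naphthalene (limma adjusted p = 0.000862, 0.00508 and 0.0203). With 2,7-naphthalenediol it stood at -0.13 and was not called. Baat, which joins bile acids to amino acids, rose by 0.14 ± 0.0408 with 1,5-naphthalenediol and by 0.21 ± 0.0408 with 1-naphthol (limma adjusted p = 0.0324 and 0.00566). None of the 6 passed with 1-naphthol or naphthalene under the slide block, where Cyp27a1 stood at -0.12 and -0.10 and Baat at 0.31 with 1-naphthol (limma adjusted p = 0.305, 0.357 and 0.0528). Hsd3b7 stood there at -0.16 and -0.07 (limma adjusted p = 0.345 and 0.665).

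Some cell type markers moved with the groups. The 9 hepatocyte markers summed to 26700 to 27700% of the 75th percentile with 2,7-naphthalenediol, 26300 to 28300% with 1,5-naphthalenediol, 26700 to 27800% with 1-naphthol, 26900 to 28300% with naphthalene and 28200 to 28600% with DMSO. The 6 bile duct markers summed to 47.6 to 51.9%, 52.8 to 53.5% and 46.6 to 55.9% with 2,7-naphthalenediol, 1,5-naphthalenediol and 1-naphthol, below 63.3 to 66.6% with naphthalene and 60.7 to 65.8% with DMSO, and Krt19, Cftr and Spp1 among them were well above background on no array. Stellate markers summed to 20.7 to 31% over all groups (Lrat and Dcn on no array), macrophage markers to 22.8 to 28.6% (5 of 8 on no array, Clec4f and Csf1r among them), endothelial markers to 168 to 217% (Pecam1 and Lyve1 on no array) and lymphocyte markers to 5.96 to 7.93% (4 of 6 on no array). The part of these markers in the results was not tested.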

How the data were processed

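Expression was measured in 15 samples on one-colour Agilent rat arrays. Per the file headers, the authors made 1 intensity per spot with Feature Extraction 10.7.1.1, background-subtracted and detrended within the array but not normalized between arrays. Total RNA came from miRNeasy extraction and 100 ng went into Cy3 labelling, per the labels' protocols. Of 45598 gene probes, 21229 matched 1 symbol through their accession in RefSeq (GRCr8), while the headers name rn4, so no probe coordinates are given.

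Control spots and spots marked as outliers (250 to 354 per array) were left out. The log2 of each intensity minus the log2 of its array's 75th percentile was averaged per probe. A probe was kept when well above background on all 3 arrays of a group, and the brightest probe stood for a gene, which left 19803 genes. Files were read with data.table (version 1.17.8) in R 4.3.3. Limma 3.58.1 fitted the 5 group means over 15 arrays, tested on simulated data. P-values were Benjamini-Hochberg adjusted within each of 10 comparisons, called below 0.05, and intervals are at 95%.

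The members, the surrounding gene lists and the markers were chosen with earlier results of these data known, and all members are named. The alternatives were the slide as a block, the replicate number as a block, each slide alone, the 2 compared groups alone, normexp (offset 50), quantile normalization, other probe rules, a trended robust fit and each array left out. The normexp alternative used the deposited median signal and median background intensity. The replicate numbers do not pair the arrays: once group means were taken out, 2 of 30 pairs with the same number correlated above 0.1, and the best match of 5 of the 15 arrays had its own number.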

Additional observations from a re-analysis of the deposited data

How the results depend on the processing

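No member difference called in a comparison changed sign under any alternative. The counts for 1,5-naphthalenediol minus DMSO (16, and 11 to 16 under the alternatives) and for the F test (19, and 16 to 21) stayed within 1.5 times. Leaving out single arrays gave 7 to 12 members for 2,7-naphthalenediol minus DMSO, 13 to 16 for 1,5-naphthalenediol, 8 to 12 for 1-naphthol and 4 to 12 for naphthalene, with 4 without DMSO 3 and 5 without naphthalene 1. For 2,7-naphthalenediol the count was 7 without DMSO 1, DMSO 3 or 2,7-naphthalenediol 3. It gave 7 to 11 for 1,5-naphthalenediol minus 2,7-naphthalenediol (7 without 2,7-naphthalenediol 1), 4 to 10 minus 1-naphthol and 15 to 18 minus naphthalene. It gave 0 to 2 for 2,7-naphthalenediol minus 1-naphthol, 1 to 6 minus naphthalene and 0 to 3 for 1-naphthol minus naphthalene.

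With the slide as a block the count was 0 for 1-naphthol and for naphthalene minus DMSO, 3 for 1,5-naphthalenediol minus 1-naphthol, and 0 for 2,7-naphthalenediol minus 1-naphthol or naphthalene. Within slide 1 it was 6 for the 2 diols, where 8.04% of all genes were called. Within slide 2 it was 0 for 1-naphthol minus naphthalene, where only 0.268% of all genes were called. Slide 2 holds a single 1,5-naphthalenediol array, so no count is given there for that compound. With the replicate number as a block, 2,7-naphthalenediol minus 1-naphthol had 0 and 1-naphthol minus naphthalene had 2, and the other counts stayed within 1.5 times.

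With only the 2 compared groups, which leaves fewer arrays for the spread, the counts were 6 and 5 for 2,7-naphthalenediol and naphthalene minus DMSO, 6, 3 and 8 for 1,5-naphthalenediol minus 2,7-naphthalenediol, 1-naphthol and naphthalene, 1 for 2,7-naphthalenediol minus naphthalene and 0 for 1-naphthol minus naphthalene. Without the filter on dim probes they were 6 and 3 for 2,7-naphthalenediol and naphthalene minus DMSO, 6 and 4 for 1,5-naphthalenediol minus 2,7-naphthalenediol and 1-naphthol, 0 and 1 for 2,7-naphthalenediol minus 1-naphthol and naphthalene, and 0 for 1-naphthol minus naphthalene. For 2,7-naphthalenediol minus 1-naphthol, normexp gave 4, quantile normalization 3, probes above background on all arrays 2, mean probes 2 and the trended robust fit 3. Normexp gave 12 for 2,7-naphthalenediol minus naphthalene. For 1-naphthol minus naphthalene, quantile normalization gave 2 and the trended robust fit 4. The causes of these changes in count were not tested. The motif shares over the 250 bases before the start were 20% for the sterol element core, 76% for the NF-Y motif and 80% for the Sp1 motif. Differences of Abcg5 and Abcg8 are limited by their dim signal, and the arrays give no view of protein or sterol levels.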
